A study of Arabidopsis thaliana with 6 samples.

Results

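The transcripts described here are those of the plastid and mitochondrial genomes in pollen of Arabidopsis thaliana, as read by a run of 150 probe sets numbered 244901 to 245050 on the Affymetrix ATH1 array. The array holds 22746 probe sets besides its controls. The run was chosen by number as the array's block for organelle genes, without use of any signal. By annotation it held 77 probe sets of plastid genes and 13 of mitochondrial genes. It was not purely organellar, because 15 probe sets belonged to genes of chromosome 2. Of these 15, 5 lay among the AT2G07 loci, a part of the chromosome known for a long nuclear copy of mitochondrial DNA, and 10 were ordinary nuclear genes such as the YABBY transcription factor YAB5. The remaining 45 were unnamed here. Of the 77 plastid probe sets, 69 were annotated to 1 gene and 8 to a gene listed in several copies. The latter are given by their number alone, as is the 1 mitochondrial probe set annotated to different genes. Whether probe sets named for mitochondrial genes also read the nuclear copy was not tested.

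Plants of ecotype Columbia were 50 days old. Dry mature pollen was drawn from open flowers by vacuum. Hydrated pollen was shaken out of flowers into a sucrose medium with calcium, boric acid and salts, spun down and kept there for 45 min at 25 °C. Pollen tubes were treated in the same way for 4 h, until they averaged about 150 µm, and were held back on a 50 µm mesh. Each stage had 2 arrays, which the study's design calls biological replicates. Mature pollen differed from the others in collection and handling too, so that hydration and handling cannot be told apart.

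Plastids and mitochondria keep small genomes of their own. The plastid genome encodes core subunits of the photosystems, of the cytochrome b6f complex, of the plastid ATP synthase and of the NADH dehydrogenase-like (NDH) complex, together with the large subunit of Rubisco, a bacterial-type RNA polymerase and part of the plastid ribosome. The mitochondrial genome encodes subunits of the respiratory complexes and proteins that mature cytochrome c. The vegetative cell of pollen is rich in mitochondria and carries plastids that are not green, and in Arabidopsis neither organelle is normally inherited through pollen. Plant organelle messengers mostly lack the stable poly(A) tail of nuclear messengers, while the labelling named in the protocols starts from oligo(dT). Signals of the block are therefore no measure of organelle RNA on the scale of nuclear RNA, and fewer organelles and less RNA per organelle cannot be told apart.

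Signals are in arbitrary linear units. The 60th percentile of each array served as the limit of background. It lay at 34.1 and 25.1 in mature pollen, 27.5 and 23.5 in hydrated pollen, and 31.5 and 19.7 in tubes, in the order of array 1 and array 2, an order kept for every list of values below. By construction 40% of all probe sets lie above it. Arrays with the same replicate number shared technical features. All 18 probe sets of the spiked bacterial and phage controls read higher on array 1 than on array 2 in each of the stages. The 25S ribosomal RNA control read 65, 100.4 and 37.6 on the arrays numbered 1 against 427, 1827.8 and 1241.9 on those numbered 2. The 5S ribosomal RNA control went the other way, at 156.8, 153.7 and 205.8 against 36.2, 50.0 and 102.4. The vegetative cell marker AT5G45880 read between 17211.3 and 31264.3 and the sperm histone MGH3 between 886 and 2442.5, so the pollen labels were borne out by the 1 named marker of 5 listed for each cell type. Of 22 nuclear photosynthesis genes listed as markers of green tissue, 3 were named. These were RCA, LHCB4.1 and ATPC1, their summed signal was 36.9 and 26.4 in mature pollen, 69.8 and 19.8 in hydrated pollen, and 72.1 and 27.4 in tubes, and 0 of the 3 lay above background on both arrays of any stage.

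Organelle transcripts mostly stood at or near background, although 53 of the 77 plastid probe sets cleared it on the first tube array. No plastid and no mitochondrial probe set lay above the 60th percentile on all 6 arrays, whereas 22% of all probe sets on the array did. The highest plastid value on any array was 169, for ccsA on the first tube array, and the highest mitochondrial value was 112.3, for ccb382 on the first mature array. Only 5 of the 462 plastid values exceeded 100.

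The stages differed in how many plastid probe sets cleared background. In mature pollen 17 and 13 of 77 did, in hydrated pollen 38 and 26, and in tubes 53 and 22. Both arrays of a stage were above it in 4 plastid probe sets of mature pollen, 21 of hydrated pollen and 19 of tubes, or 5.19%, 27.3% and 24.7%, beside 29.3%, 30.4% and 30.9% of all probe sets. The ratio of the 3' to the 5' ubiquitin control, a sign of RNA quality, moved with the same step, at 4.9 and 4.34 in mature pollen, 2.98 and 2.76 in hydrated pollen, and 3.04 and 2.46 in tubes. The ratio of a further ubiquitin pair was 2.18 on the first mature array and 0.969 to 1.23 on the other 5. A pair of GAPDH controls was dimmer and showed no such step. Its 3' signals were 43.8 and 62.4, 36.8 and 40, and 210.1 and 143. The 5' signals of that pair were 36.4 and 16.3, 32.4 and 35.3, and 54.3 and 65.2. A further GAPDH pair read 27.0 and 45.5, 56.3 and 70.1, and 220.7 and 253.1 at its 3' end. At its 5' end it read 4.9 and 52.0, 34.0 and 92.8, and 129.8 and 251.6. The 3' and 5' actin controls read 98.5 or less. The part of RNA quality in the plastid counts was not tested. Mature pollen was below the array as a whole, hydrated pollen and tubes came nearer to it, and only the first hydrated and first tube arrays had a larger share of plastid probe sets above background than the 40% of the array. Over the 6 arrays, 47 of the 77 passed the filter used for testing, which asks for 2 arrays above background, while 16 were above it on 0 arrays and 14 on 1.

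**Figure D1:**
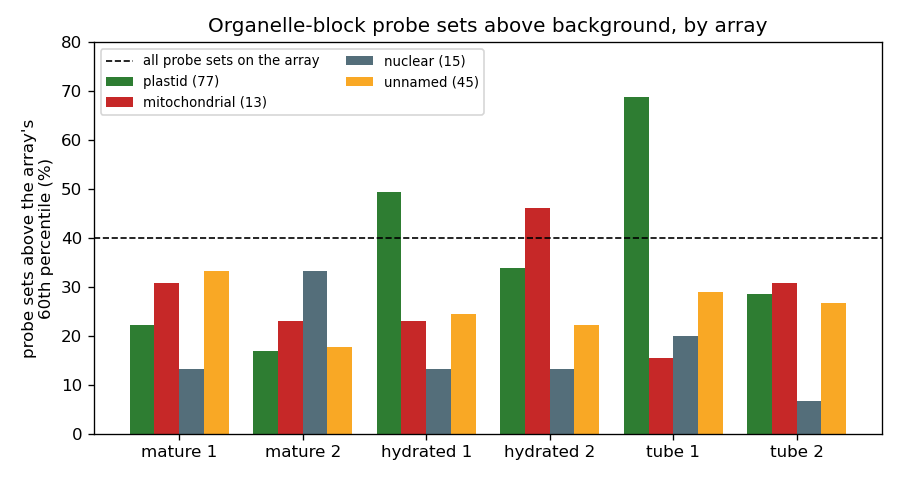
Share of probe sets above the 60th percentile of their array, in percent, for the plastid, mitochondrial, nuclear and unnamed members on each of the 6 arrays, with the dashed line at the 40% of all probe sets. The plastid bar reaches 68.8% on the first tube array and 28.6% on the second, and stays at 22.1% and 16.9% in mature pollen.

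Mitochondrial probe sets showed no such order of stages. Above background were 4 and 3 of 13 in mature pollen, 3 and 6 in hydrated pollen, and 2 and 4 in tubes. The 11 probe sets for nad1, nad2, nad5 and cox1 that lie outside the block behaved in the same range, with 2 and 2, 4 and 1, and 2 and 1 above background. Nuclear genes for proteins of the respiratory chain gave another picture. Of 28 listed, 8 were named, on 9 probe sets, all of which passed the filter. The signals of AT5G11770, a subunit of complex I, lay between 1108.3 and 1952.0, and those of CYTC-2, a cytochrome c, between 1293.5 and 3915.6. Above background were 9 of 9 on both mature arrays and 8 on each later array. The exception was 1 of a pair of probe sets for SDH2-1, the iron-sulphur subunit of succinate dehydrogenase, which read 61.6 and 25.7 in mature pollen and 2.6 to 4.5 later, while the other read 879 to 1232.8. Signals of different probe sets are not on a common scale, and only their place above or below background is compared here. Of 13 genes listed for organelle transcription and DNA upkeep, only AT5G15700, which encodes a phage-type RNA polymerase of the organelles, was named, and it was below background on all 6 arrays, at 1.7 to 7.

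The plastid genes are described by role. Among the 15 probe sets for photosystem II, the complex that splits water, 3 and 2 were above background in mature pollen, 7 and 3 in hydrated pollen, and 9 and 4 in tubes. psbM, a small subunit, read 77.2 and 26.9 in mature pollen, 59.1 and 19.7 in hydrated pollen, and 110.6 and 13.8 in tubes. The gap between its arrays exceeded that between its stages. psbF, a subunit of cytochrome b559, read 39.9 and 26.2, then 46.4 and 19.1, then 90.6 and 20.9, with the same dependence on the array. psbA, the reaction centre protein D1, is named outside the rule for named genes because it is the plastid transcript best known from leaves. It was below background on all 6 arrays, at 21.8 and 1.8, 25.4 and 12.6, and 8.8 and 14.2.

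psbD, the reaction centre protein D2, ran the other way. It read 36.2 and 23.4 in mature pollen, 55.3 and 35.3 in hydrated pollen, and 3.7 and 7.9 in tubes. Both tube arrays were below both arrays of each other stage. The change from hydrated pollen to tubes was -3.03 ± 0.96 on the log2 scale (limma adjusted p = 0.125) and did not pass. With background as the lower level, psbD was at least 1.77-fold higher in hydrated pollen. psbC, its neighbour on the plastid genome and an antenna protein of the same complex, read 6.3 and 2.4, 45.1 and 2, and 38 and 25, with both tube arrays above both mature ones. psbB, another antenna protein, read 8.7 and 1.6, 37.9 and 1.2, and 64.9 and 21.4. psbK, a small subunit, read 3.3 and 9.4, 30.5 and 37.3, and 33.3 and 14.5. With background as the lower level, the log2 means of psbB were 1.27-fold higher in tubes than in mature pollen. This is no lower limit, since tube array 2 read 21.4, under the background of 25.1 on mature array 2. The fitted change of psbB did not pass (limma adjusted p = 0.446).

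Of 7 photosystem I genes, counting the assembly factors ycf3 and ycf4, 1 and 2 were above background in mature pollen, 3 and 4 in hydrated pollen, and 3 and 1 in tubes. psaC, an iron-sulphur subunit, read 25.3 and 11.6, 36.5 and 41, and 56.6 and 26.9. ycf4 read 62.8 and 37.3 in mature pollen, 13.3 and 33.1 in hydrated pollen, and 28 and 8.2 in tubes. Both of its mature arrays were above every later array.

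In the cytochrome b6f list of 7, 2 and 4 were above background in mature pollen, 4 and 3 in hydrated pollen, and 6 and 2 in tubes. ccsA, listed here because it attaches haem to c-type cytochromes, read 26.5 and 43.7 in mature pollen, 101 and 41.1 in hydrated pollen, and 169 and 46.3 in tubes. The first arrays differ widely and the second arrays hardly at all. The change from mature pollen to tubes was 1.38 ± 0.72 (limma adjusted p = 0.353), at 2.67 within replicate number 1 and 0.08 within number 2. petD, a subunit of the complex, read 43.9 and 17.3, 31.8 and 29.7, and 55.2 and 15.6.

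Of 6 genes for the plastid ATP synthase, 1 and 3 were above background in mature pollen, 3 and 4 in hydrated pollen, and 4 and 3 in tubes. atpB and atpE encode the beta and epsilon subunits and lie side by side on the plastid genome. atpE read 10.6 and 51.8 in mature pollen, 87 and 70.9 in hydrated pollen, and 76.2 and 82.1 in tubes. atpB read 6.1 and 57.5, 59.3 and 57.4, and 42.8 and 49.2. Both were below background on the first mature array and above it on the other 5, although read with separate probe sets. The genes on either side of this pair did not share the pattern. In mature pollen ndhC, next to atpE, read 24.1 and 20.9, and rbcL, next to atpB, read 62.8 and 1.9. The change of atpE from mature pollen to tubes was 1.76 ± 0.72 (limma adjusted p = 0.21), at 2.85 within number 1 and 0.66 within number 2.

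Of 11 NDH genes, whose products carry electrons around photosystem I, 2 and 0 were above background in mature pollen, 6 and 2 in hydrated pollen, and 7 and 4 in tubes. ndhI, an iron-sulphur subunit, read 35.5 and 10.2, 76.8 and 42.5, and 125 and 36.5. Its change from mature pollen to tubes was 1.83 ± 0.81 (limma adjusted p = 0.257), and it was alike within both numbers, at 1.82 and 1.84. With an array left out, it lay between 0.93 without mature array 2 and 2.73 without mature array 1. It was 1.18 with values raised to the 60th percentile. ndhE, a membrane subunit, read 22.3 and 1.6, 50.7 and 41.7, and 69.9 and 25.2. Both mature arrays were below background. With background as the lower level, the log2 means of ndhE were 1.43-fold higher in tubes (limma adjusted p = 0.235). That rested on array 1, since tube array 2 read 25.2 beside a background of 25.1 on mature array 2. The fitted change of 2.81 ± 1.20 rested on the second mature array. It was 0.91 without that array, 4.71 without mature array 1 (adjusted p = 0.0273), 0.52 with values raised to the 60th percentile, and 1.65 and 3.98 within the numbers. ndhE and ndhI belong to a stretch of 9 neighbouring genes from ccsA to rps15, picked out here after the values had been seen and therefore not tested. Of these 9, 2 and 1 were above background in mature pollen, 7 and 5 in hydrated pollen, and 8 and 6 in tubes.

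The genes of plastid transcription and translation were dim in mature pollen as well. Of 20 ribosomal protein probe sets, 3 and 1 were above background in mature pollen, 10 and 5 in hydrated pollen, and 14 and 3 in tubes. Probe set 244988_s_at, whose ribosomal protein gene is annotated in several copies, read 59.6 and 8.2, 73.4 and 33.8, and 126.6 and 41.9. rpl20, of the large subunit, read 5.5 and 1.1, 53.2 and 10.6, and 46.5 and 14.9. Only its first hydrated and first tube arrays were above background, and no fold is given.

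Of 5 probe sets for the plastid RNA polymerase and the intron maturase matK, 1 and 1 were above background in mature pollen, 2 and 3 in hydrated pollen, and 5 and 2 in tubes. rpoC2, a polymerase subunit, read 27.7 and 19.4, 45.2 and 38.7, and 38.3 and 21.9. matK read 30.5 and 2.4, 29.7 and 50.3, and 66.8 and 20.9. In the pair of ycf probe sets, 1 and 0 were above background in mature pollen, 0 and 0 in hydrated pollen, and 2 and 0 in tubes.

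**Figure D2:**
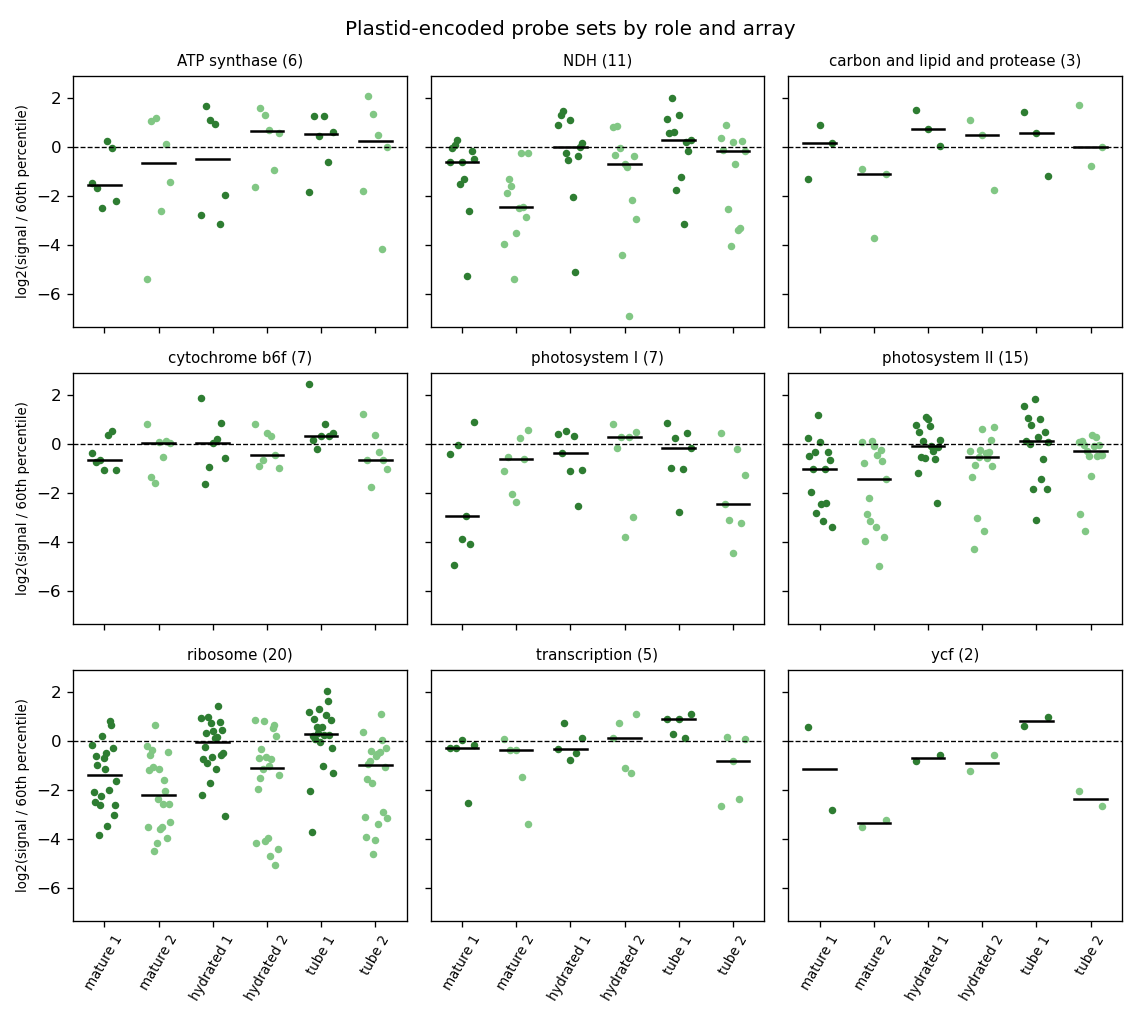
Log2 of signal over the array's 60th percentile for the plastid probe sets in 9 role lists, with 1 point per probe set, a black bar at the median and the dashed line at background, and array 1 dark and array 2 pale. Most medians sit at or below the line, and the tube 1 points of the ribosome panel (14 of 20 above the line) stand apart from those of tube 2 (3 of 20).

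rbcL, the large subunit of Rubisco and so part of carbon fixation, read 62.8 and 1.9 in mature pollen, 46.2 and 32.9 in hydrated pollen, and 46.6 and 11.4 in tubes. Its mature arrays enclosed all the others, and the change from mature pollen to tubes was 1.08 with an adjusted p of 0.777 in limma.

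In the fit by stage, without the replicate number as a block, the only plastid gene whose stages differed past the threshold was clpP, the plastid-encoded catalytic subunit of the Clp protease, which breaks down proteins of the plastid stroma. clpP read 13.8 and 13.6 in mature pollen, 77.6 and 49.7 in hydrated pollen, and 85.3 and 63.8 in tubes. Both mature arrays were below background and all 4 later arrays were above it, with no overlap. Mean signals were 13.7 ± 0.141 in mature pollen and 74.5 ± 15.2 in tubes (SD, n = 2 arrays each). clpP was at least 2.52-fold higher in tubes than in mature pollen, the bound taking background as the lower level, and the fitted log2 change was 2.43 ± 0.60 (limma adjusted p = 0.0331), at 2.63 within replicate number 1 and 2.23 within number 2. From mature to hydrated pollen it was 2.18 ± 0.60 (adjusted p = 0.274), and from hydrated pollen to tubes 0.25 ± 0.60 (adjusted p = 0.925), neither of which passed.

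The clpP call was close to the threshold. Its adjusted p was 0.0694 without the intensity trend, 0.0553 without a filter on dim probe sets and 0.113 with values raised to the 60th percentile, where the change was 1.33. It was 0.0558 without mature array 1, 0.0594 without mature array 2, 0.0569 without hydrated array 1, 0.0509 without hydrated array 2, 0.193 without tube array 1 and 0.111 without tube array 2. psaC, ndhE, rps15, clpP, rpoC2 and matK were below background on both mature arrays and above it on all 4 later ones. Besides clpP none of them passed the test, and in rps15, rpoC2 and matK the signals themselves overlapped between mature pollen and tubes. On the second tube array, where background lay at 19.7, rpoC2 read 21.9 and matK 20.9. These 6 are 7.79% of the plastid probe sets, against 0.73% of all probe sets with that course. The reverse course, above background on both mature arrays and below on all later ones, was seen in 0 plastid probe sets and 0.809% of all.

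**Figure D3:**
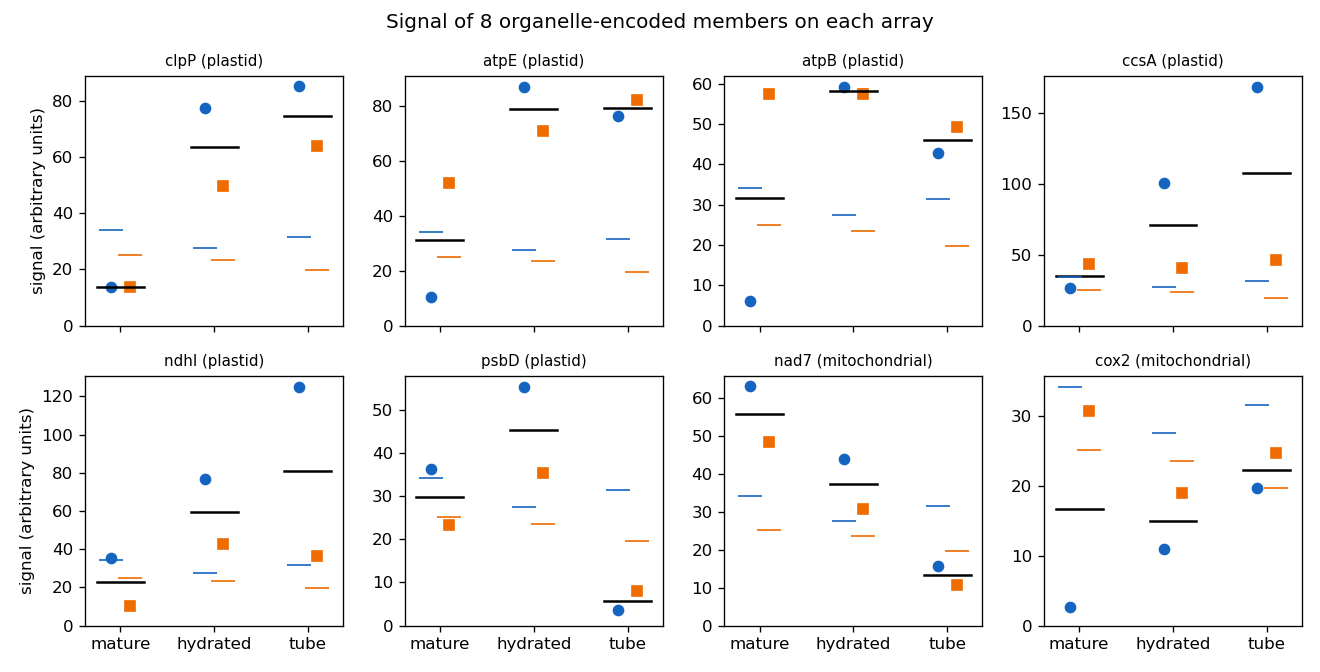
Signal in arbitrary units of 6 plastid and 2 mitochondrial genes in mature pollen, hydrated pollen and tubes, with a circle for array 1, a square for array 2, a black bar for their mean and short coloured dashes at each array's 60th percentile. clpP lies below the dashes at 13.8 and 13.6 in mature pollen and above them later, whereas nad7 and psbD lie below them in tubes.

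Tested across all 11412 probe sets that passed the filter, with 47 plastid, 5 mitochondrial, 4 nuclear and 18 unnamed members among them, few members of the block passed. Counts are of probe sets with a limma adjusted p under 0.05. In hydrated against mature pollen, where 0.578% of all tested probe sets changed (0.526% up and 0.0526% down), 0 plastid and 0 mitochondrial members did. An unadjusted limma p under 0.05 was seen in 4 plastid and 0 mitochondrial members, beside 6.18% of all. In tubes against hydrated pollen, where 4.57% changed (2.54% up and 2.03% down), 0 plastid and 0 mitochondrial members did. An unadjusted p under 0.05 was seen in 1 plastid and 0 mitochondrial members, beside 15.1% of all. In tubes against mature pollen, where 7.9% changed (4.61% up and 3.29% down), 1 plastid member did, clpP, and 0 mitochondrial ones. Here 5 plastid members and 1 mitochondrial member had an unadjusted p under 0.05, beside 18.8% of all. These comparisons share arrays, and limma was the only test run.

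The direction of the plastid probe sets was described over all 77, untested ones included. From mature to hydrated pollen 54 had a positive log2 difference and 23 a negative one, with a median of 0.77 beside -0.12 over all probe sets. The arrays did not overlap in 17 that were higher and 6 that were lower in hydrated pollen, or 22.1% and 7.79%, beside 13.3% and 19.4% of all probe sets. From hydrated pollen to tubes 40 were positive and 37 negative, with a median of 0.01 beside -0.05. Here 2 did not overlap and were higher in tubes, and 6 were lower, beside 17.2% and 19.1% of all probe sets. Between mature pollen and tubes 56 were positive and 21 negative, with a median of 0.70 beside -0.21. In this comparison 16 did not overlap and were higher and 4 were lower, beside 15.5% and 23% of all.

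These medians depended on single arrays. The median from mature to hydrated pollen was 0.35 within replicate number 1 and 0.45 within number 2, and it was -0.09 without mature array 2, 0.37 without hydrated array 1 and 1.38 without hydrated array 2. From hydrated pollen to tubes it was 0.74 within number 1 and -0.44 within number 2, and between -0.70 without tube array 1 and 1.04 without tube array 2. From mature pollen to tubes it was 0.99 within number 1 and 0.08 within number 2, and it was -0.08 without tube array 1, 0.13 without mature array 2 and 1.65 without tube array 2. With values raised to the 60th percentile, it was -0.19 from mature to hydrated pollen and -0.09 from mature pollen to tubes. That floor is each array's own limit, so a probe set under it on all arrays compared returns only the difference between the limits. Most plastid probe sets were under it in mature pollen, so the medians with this floor cannot decide the direction.

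Within a stage the plastid probe sets were mostly higher on the array numbered 1. This held for 57 of the 77 for mature pollen, 60 for hydrated pollen and 69 for tubes, or 74%, 77.9% and 89.6%, beside 61.4%, 55.7% and 63.4% of all probe sets. With signals taken relative to each array's 60th percentile the plastid shares were 64.9%, 68.8% and 79.2%, beside 47.3%, 48% and 43% of all. In 41 plastid probe sets array 1 was the higher in all the stages and in 0 it was the lower in all of them, beside 27% and 11% of all probe sets. The spiked controls and both ribosomal RNA controls differed between the same arrays, the 25S control being lower on array 1 and the 5S control higher. Their part in the plastid signals was not tested. In the mitochondrial probe sets 9, 4 and 10 of 13 were higher on array 1.

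**Figure D4:**
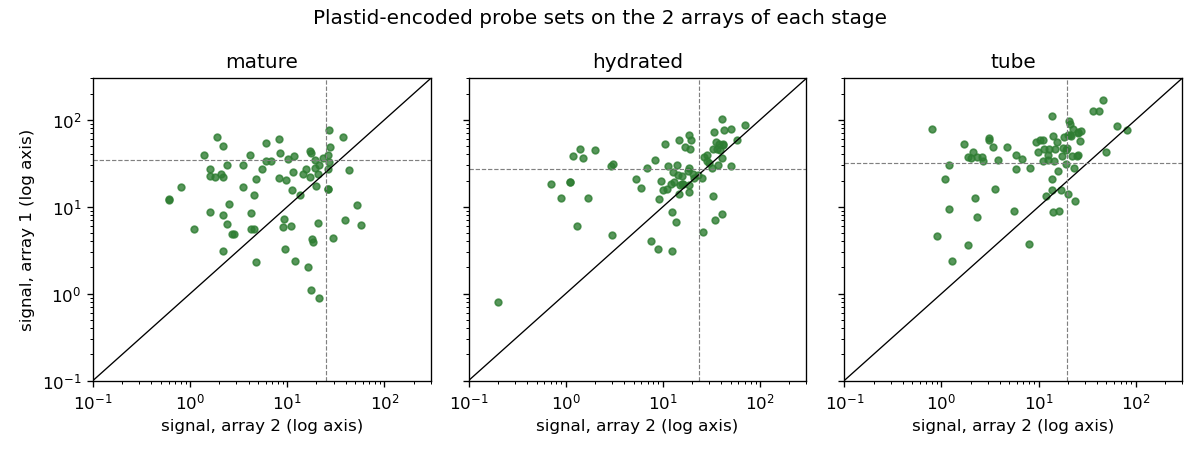
Signal of each of the 77 plastid probe sets on array 1 (vertical, log axis) against array 2 (horizontal, log axis) of mature pollen, hydrated pollen and tubes, with the line of equality and dashed lines at the 60th percentiles. Points lie above the line in 57, 60 and 69 of 77 probe sets.

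The mitochondrial members named by the annotation were few, and 45 probe sets of the block were unnamed. Of 5 complex I genes, 1 passed the filter, nad7, a subunit of the peripheral arm of the complex. nad7 read 63.2 and 48.5 in mature pollen, 44 and 30.6 in hydrated pollen, and 15.7 and 10.8 in tubes. The arrays of the stages did not overlap at either step, and both tube arrays were below background. The change from mature pollen to tubes was -2.09 ± 0.69 (limma adjusted p = 0.113), at -2.01 within number 1 and -2.17 within number 2, and it did not pass. With background as the lower level, nad7 was at least 2.22-fold higher in mature pollen. nad4L, a membrane subunit, was below background on all 6 arrays, at 2.7 to 21.5.

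cox2, a subunit of cytochrome c oxidase, was the only complex IV gene named in the block. It read 2.7 and 30.7 in mature pollen, 10.9 and 19 in hydrated pollen, and 19.6 and 24.7 in tubes. It cleared background on 2 arrays, and its mature arrays enclosed all the others. Among 4 probe sets for cytochrome c maturation, ccb452 read 45.5 and 21.7, 53.9 and 54.5, and 38.8 and 30, above background on 5 arrays. ccb382 read 112.3 and 4.6, 67.7 and 26.8, and 26.6 and 6.9, with mature arrays on either side of all the others. orfX, a gene of the twin-arginine translocase type, read 48.1 and 40.3, 19.5 and 50.8, and 46.9 and 40.3, a change of -0.02 ± 0.66 from mature pollen to tubes (limma adjusted p = 0.992). Over all 13 the median log2 difference was 0.38 from mature to hydrated pollen, -0.31 from hydrated pollen to tubes and -0.02 from mature pollen to tubes. The first was -0.73 within number 1 and 0.33 within number 2, and the second 0.85 and -0.64, so neither kept its sign.

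Among the nuclear respiratory genes on the 9 tested probe sets, 1 rose and 0 fell in tubes against mature pollen, a count too small to set apart from the 4.61% up and 3.29% down of all tested probe sets. In the other comparisons 0 changed. The 1 that rose was SDH1-1, the flavoprotein of succinate dehydrogenase, a complex with no subunit in the mitochondrial list. SDH1-1 read 211 and 276 in mature pollen, 300 and 316 in hydrated pollen, and 646 and 673 in tubes (1.45 ± 0.32, limma adjusted p = 0.0198). The median log2 difference of the 9 was 0.15.

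The 4 members above the 60th percentile on all 6 arrays, named here after their values were seen, were 245028_at, 245036_at, 245042_at and 245043_at. All lie next to or among the numbers of the 10 ordinary nuclear genes, and the files do not pair them with a gene. 245036_at read 7182.6 and 8240.6 in mature pollen, 11031.8 and 10840.7 in hydrated pollen, and 8732.6 and 8795.6 in tubes, and its change from mature pollen to tubes was 0.19 ± 0.29 (limma adjusted p = 0.802). 245028_at read 51.5 and 92.9, 190 and 96.7, and 774.5 and 725.9. It rose from hydrated pollen to tubes by 2.47 ± 0.45 (limma adjusted p = 0.011) and from mature pollen to tubes by 3.44 ± 0.45 (limma adjusted p = 0.000825), and it was the only other member that passed. The first of these calls was lost at adjusted p = 0.122 without hydrated array 2, 0.142 without tube array 1, 0.096 without tube array 2 and 0.171 without the intensity trend, and the second at 0.0541 without the trend.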

How the data were processed

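The authors deposited signal intensity on a linear scale for each of the 6 ATH1 arrays. Per the submitters' processing notes, the software was GCOS 1.0 with MAS5. Without its lowest and highest 2%, each array averaged 100.02 or 100.03, so each was scaled on its own to a common target. From 8 µg of RNA, 20 µg of cRNA was labelled with a One-Cycle kit, per the labels' protocols. Detection calls were not used here.

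The 64 control probe sets were left out, values under 0.1 were raised to 0.1, and log2 was taken. Probe sets above background (the 60th percentile) on 2 or more of the 6 arrays were tested with limma 3.58.1 in R 4.3.3, with a mean per stage, 3 residual degrees of freedom, an intensity trend, two-sided tests and Benjamini-Hochberg adjustment over all 11412. The fit was run on simulated data to check that it recovered the changes put in. Noise there was independent between arrays, so the simulation cannot speak to features shared by arrays of the same number. No origin shared by arrays of the same number is given, so the main fit had no block. Its p-values measure the spread between arrays of a stage, which includes any shift tied to the number.

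Names came from the platform annotation (13513 probe sets with 1 gene, 503 with several, 8730 unnamed), and 76 of 78 plastid protein-coding symbols of the TAIR10.1 table were on the block. Plastid genes were recognised through that table and mitochondrial ones by symbol. Named were the members called, the 2 with the highest mean log2 signal in each role list, and the 3 highest and lowest changes per comparison and organelle, of which the main ones are described. Members and lists were chosen with earlier results of these data known. Alternatives changed the scaling, floor, filter, trend, replicate block and arrays.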

Additional observations from a re-analysis of the deposited data

How the results depend on the processing

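With 2 arrays per stage and signals near background, the number of arrays and the dimness of the probe sets limit every comparison. The counts of members called were recomputed under each alternative. In hydrated against mature pollen, 0 of the block were called and 1 with the replicate block (clpP, adjusted p = 0.0481). In tubes against hydrated pollen, 1 of the block was called, 3 with the replicate block and 0 without the intensity trend, and between 0 and 1 with an array left out. In tubes against mature pollen, 1 plastid member was called, 3 with the replicate block (clpP, ndhI and atpE), 0 without the intensity trend, 0 with values raised to the 60th percentile and 0 without a filter, and between 0 and 1 with an array left out. The 1 was ndhE without mature array 1 (adjusted p = 0.0273) and atpE without mature array 2 (adjusted p = 0.019). For mitochondrial members the count was 0, and 1 with the replicate block (nad7, adjusted p = 0.049). For the whole block it was 2, and 5 with the replicate block, 1 without the intensity trend (a member without an organelle gene, which fell), 1 with values so raised, 1 without a filter, and between 1 and 2 with an array left out. The labels give no meaning to the replicate number. Deviations from the stage means on arrays sharing a number correlated at 0.174 to 0.221 over 11412 probe sets in the 3 pairs of stages. The cause of these shifts was not tested, except that fewer arrays widen the error by construction.

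The share of the block above background, 22.3% for mature pollen, 32.7% for hydrated pollen and 36.7% for tubes, was 38.3%, 48% and 50% with the 50th percentile as the limit and 7.67%, 11.7% and 13.7% with the 75th. The block's share of summed signal, 0.162%, 0.217% and 0.229%, was 0.0508%, 0.0582% and 0.0797% without its brightest probe set. Of 1374 changes of named members under alternatives, 1354 kept their side of the threshold, and their direction where called. Of the others, 14 lost the call, 6 gained it and 0 reversed. Most of the 1354 were changes that were not called in the main fit, so their number does not measure how stable the calls were. All 14 losses fell on the calls of clpP and of the only other member that passed. With signals taken relative to each array's 60th percentile, a choice made after seeing the data, the plastid medians were 0.98, 0.04 and 0.93 for the comparisons in the order above.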
